A study of Caenorhabditis elegans with 16 samples.

Results

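H3K9me2 was set against H3K9me3 across the genome of met-2 mutant embryos, window by window, by ChIP-seq (sequencing of DNA bound to histones carrying a mark). The members were 191140 windows of 500 bp, out of 198087 in all, in which none of the 4 inputs of the series had fewer than 20 counts. The embryos of Caenorhabditis elegans, a nematode, were younger than the bean stage and came from cultures at 20 °C. The strains were met-2(n4256) III and, for the values set beside them, set-25(n5021) III, and no wild type was among the samples. The 16 samples form 8 groups, a ChIP and an input per mark and strain. The labels give 2 biological replicates per group, but the table has 1 column per group and does not say whether it is a replicate or a sum. With no spread between replicates to set a difference against, values are described without a test, and all intervals cover counting error only.

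Methylation of lysine 9 of histone H3 marks silent chromatin, including repeats and much of the chromatin held at the nuclear edge. In worm embryos, MET-2, a relative of mammalian SETDB1, makes the mono- and dimethylated forms. SET-25 is the enzyme on which the trimethylated form depends. In a met-2 mutant, H3K9me2 is thus the mark whose main enzyme is missing, and H3K9me3 is the mark whose enzyme is present.

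Enrichment is log2 of ChIP over its own input, both scaled to CPM (counts relative to the column's total) with 0.1 CPM added. The antibodies differ, so a value compares enrichments and not amounts of a mark. The met-2 columns held 26568332 counts for the H3K9me2 ChIP, 34007808 for its input, 58645635 for the H3K9me3 ChIP and 114221896 for its input. The median window held 137, 185, 204 and 488 counts, and its counting error (SE) was 0.16 for H3K9me2 and 0.12 for H3K9me3. On III from 8376501 to 8377500, where 513 counts were found in the set-25 input for H3K9me2, all 4 met-2 columns were nearly empty. Both met-2 inputs and the H3K9me2 ChIP held 0 counts, where flanks predicted 438.6, 1224.8 and 369.9, and the H3K9me3 ChIP held 6 of 449.4. All 4 columns thus lacked the same stretch of the chromosome that carries met-2. There, 2 counts of 607.9 were found in the input for H3K9me3 labelled set-25, against its label. The H3K9me3 ChIP labelled set-25 was low there too, with 15 counts of 139.5. That input and its ChIP are called "labelled set-25" below, and the input is also used as an alternative denominator.

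The inputs of the 2 marks stood apart. Their counts had a Spearman correlation of -0.27 over the kept windows, whereas each resembled the input of the same mark under the other strain label (0.72 for H3K9me2 and 0.96 for H3K9me3). The log2 ratio of the H3K9me2 input to the H3K9me3 input, called the input ratio below, had a median of 0.36, quartiles of -0.39 and 0.92 and an SD of 1.05. H3K9me2 enrichment, whose own input is the numerator, followed the inverse of this ratio (Spearman's rho -0.68). H3K9me3 enrichment, whose own input is the denominator, barely followed the ratio (0.13). Counts of the H3K9me2 ChIP correlated with those of its own input at 0.46, and those of the H3K9me3 ChIP at 0.82. Why the marks differed in this was not tested. The main relations below are therefore given also at equal input ratio. The input-matched H3K9me2 value of a window is its enrichment minus the median of windows with H3K9me3 between -0.5 and 0.5 in the same of 20 equally filled strata of the input ratio.

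H3K9me2 of met-2 embryos was centred near 0 and was higher where H3K9me3 was high. H3K9me2 had a median of -0.01, 5th and 95th percentiles of -0.79 and 0.71, an SD of 0.46 and a highest window of 2.41. H3K9me3 had a median of -0.35, an SD of 0.66 and a highest window of 4.86. In the 7830 windows above 1 for H3K9me3 (4.10% of all kept windows), the median H3K9me2 enrichment was 0.61, and 7311 (93.4%) lay above 0, against 49.6% of all kept windows. In the 103725 windows with H3K9me3 between -0.5 and 0.5 the median was -0.04. The difference was 0.66, a 1.58-fold higher H3K9me2 signal, and at equal input ratio it was 0.40, or 1.32-fold. The first value depended on the input. With each mark over the input of the same mark labelled set-25 it was 0.47, with both over the pooled met-2 inputs 0.19, and with the 2 met-2 inputs exchanged it turned to -1.07. The input-matched value was 0.35, 0.39 and 0.10 under the same 3 choices.

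The rise began near an H3K9me3 enrichment of 0.5 and went on to the top of its range. From the lowest values to 0.5, the median H3K9me2 of a bin stayed between -0.19 and 0.00. It was 0.15 in the 4771 windows from 0.5 to 0.75 for H3K9me3, 0.29 from 0.75 to 1, 0.43 from 1 to 1.5 and 0.57 from 1.5 to 2. It reached 0.73 from 2 to 2.5, 0.91 from 2.5 to 3, and 1.14 (quartiles 0.93 and 1.35) in the 768 windows above 3. Those 768 windows had a median H3K9me3 fold over input of 9.77 and a median H3K9me2 fold of 2.21. The H3K9me2 gain was smaller than that of H3K9me3 in each bin above 1, which follows in part from cutting the bins on H3K9me3.

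At equal input ratio the curve was lower at its top and had no flat stretch from an H3K9me3 of -1.5 upward. The input-matched medians were -0.12 from -1.5 to -1, -0.07 from -1 to -0.5, -0.01 from -0.25 to 0, 0.08 from 0.25 to 0.5, 0.27 from 1 to 1.5, 0.48 from 2 to 2.5 and 0.76 above 3. The input ratio itself fell along the same bins, from 0.62 between 0 and 0.25 for H3K9me3 to -0.08 between 1 and 1.5 and -1.05 above 3. Over the H3K9me2 input of set-25, the median H3K9me2 of met-2 rose to 0.82 above 3, close to the input-matched curve. Over the H3K9me3 input of met-2, which is also the denominator of H3K9me3, H3K9me2 rose to 0.58 between 0.25 and 0.5 and then fell to 0.13 above 3. The choice of input thus set the shape of the curve when the input ratio was not held equal.

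**Figure D1:**
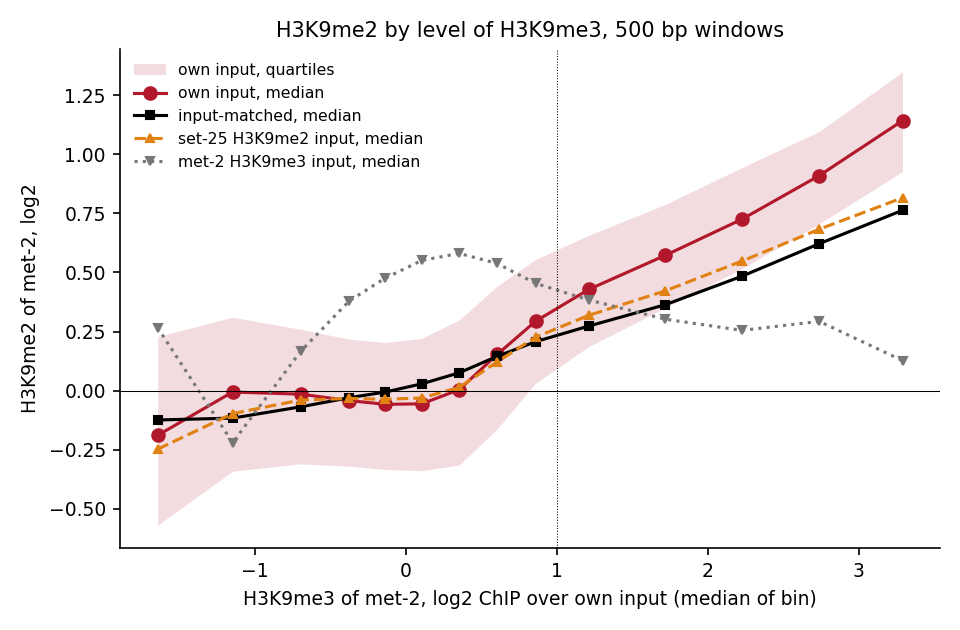
Median H3K9me2 of met-2 (y axis, log2) in bins of H3K9me3 of met-2 (x axis, log2 ChIP over own input), with H3K9me2 over its own input (band: quartiles), input-matched, over the set-25 H3K9me2 input and over the met-2 H3K9me3 input. The first 3 rise to 1.14, 0.76 and 0.82 in the highest bin, and the last falls to 0.13; the dotted line marks the threshold of 1.

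Within strata of the input ratio the difference between H3K9me3-rich and H3K9me3-poor windows was nearly constant. Where the H3K9me2 input was the lower by more than 2-fold, the median H3K9me2 was 0.89 in 2228 windows above 1 for H3K9me3 and 0.44 in 6665 windows between -0.5 and 0.5. Where the inputs differed by at most 0.2, the medians were 0.58 in 1306 windows and 0.17 in 14722. Where the H3K9me2 input was more than 2-fold the higher, they were -0.05 in 368 windows and -0.45 in 25390. The 7 differences ran from 0.37 to 0.45 (1.29- to 1.36-fold), while the level of H3K9me2 in either class fell from the first stratum to the last. Windows below -0.5 for H3K9me3 lay 0.05 to 0.11 under those between -0.5 and 0.5 in the same strata.

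**Figure D2:**
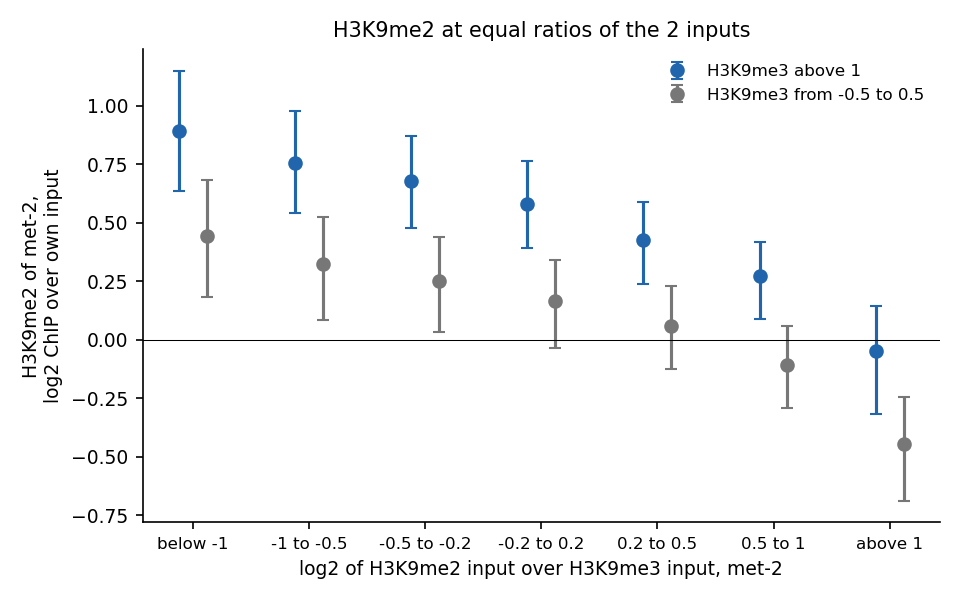
Median H3K9me2 of met-2 (y axis, log2 ChIP over own input; bars: quartiles over windows) in 7 strata of the log2 ratio of the H3K9me2 input to the H3K9me3 input (x axis), for windows above 1 and between -0.5 and 0.5 for H3K9me3. Both series fall to the right, and the gap between them stays between 0.37 and 0.45.

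The difference was found on each chromosome. It was 0.57 on II, 0.59 on V, 0.67 on the measured part of X, 0.72 on I and III and 0.75 on IV. At equal input ratio it was lowest on X (0.30) and V (0.34) and highest on I (0.48). The outer 25% on each side of an autosome counted as its arms and the remainder as its middle. Over the 15 autosomal arms and middles the input-matched difference was positive in all, from 0.22 on the right arm of IV, with 49 H3K9me3-rich windows, to 0.57 on the left arm of I. Pooled over autosomes it was 0.41 on arms (2016 H3K9me3-rich windows) and 0.38 in middles (4997).

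Single windows past the threshold for both marks were few. H3K9me2 exceeded 1 in 2563 windows (1.34%), of which 1404 also exceeded 1 for H3K9me3. These are 54.8% of the H3K9me2-enriched and 17.9% of the H3K9me3-enriched windows. The overlap depended on the denominator. It was 415 of 542 H3K9me2-enriched windows (76.6%) with the inputs labelled set-25 and 270 of 391 (69.1%) with pooled met-2 inputs. With the met-2 inputs exchanged it was 452 of 17781 (2.54%), and with 1 CPM added in place of 0.1 it was 645 of 819 (78.8%). Under these 4 choices the windows above 1 for H3K9me3 numbered 7781, 8677, 19530 and 6733 of 191140. In the main setting they numbered 7830 (4.10%). The share of windows above 1 for H3K9me2 rose with H3K9me3, from 0.37% between -0.5 and -0.25 to 5.02% between 1 and 1.5, 20.6% between 2 and 2.5 and 66.1% above 3. In the shared windows H3K9me3 was the higher mark in 1350 (96.2%), with medians of 2.71 and 1.19.

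The 1159 windows above 1 for H3K9me2 alone mostly stood singly, at an H3K9me3 close to that of windows of neither mark. Their median H3K9me3 was -0.38 (quartiles -0.88 and 0.20), against -0.37 in windows of neither, and 977 of them were isolated single windows. They held a median of 69 counts in the H3K9me2 input, against 120 in windows of both marks and 185 in windows of neither. In the H3K9me3 input they held 1215, against 1126.5 and 479. Their median input ratio was -2.10, compared with -1.33 in windows of both marks and 0.39 in windows of neither. In 409 of them (35.3%) the H3K9me3 input exceeded 3 times its median, as it did in 430 windows of both marks (30.6%) and in 5462 of the 182151 windows of neither. Over the set-25 input of H3K9me2, 51 of the 1159 (4.40%) still exceeded 1, against 342 of the 1404 (24.4%). On autosomes 68.2% lay on arms, whereas 30.3% of the windows of both marks and 49.5% of all kept windows did.

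The longest run above 1 for H3K9me2 and below 0.5 for H3K9me3 did not share the low input ratio. It covered 2 kb on IV, from 11070501 to 11072500, with 2053 ChIP and 1254 input counts for H3K9me2. H3K9me2 stood at 1.07 (95% counting interval 0.97 to 1.17), H3K9me3 at -1.13 (-1.23 to -1.04) and the input ratio at -0.12. H3K9me2 of set-25 stood at 5.65 in the same 2 kb. The next 4 runs measured 1.5 kb each, on I from 1285501, from 3355501 and from 14367501 and on II from 2724001. They held only 165 to 209 counts in the H3K9me2 input, with H3K9me2 at 1.18 to 1.55, H3K9me3 at -1.42 to 0.08 and input ratios of -3.53 to -1.52.

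Domains were then compared with their surroundings. An H3K9me3 domain was a run of at least 10 adjacent windows above 1, and 214 were found, 5 to 29 kb long, covering 1.78 Mb. H3K9me3 in them was high by this choice, with a median of 2.33 and a range of 1.30 to 3.83 from summed counts. H3K9me2, which had no part in the choice, ranged from 0.28 to 1.41 with a median of 0.71 (1.63-fold). It was above 0 in all 214, against 47.8% of all 5 kb windows, and above 1 in 24, against 0.304%. H3K9me3 exceeded H3K9me2 in every domain, by 0.66 to 3.09 and a median of 1.60 (3.04-fold). The choice of windows above 1 for H3K9me3 favoured this order of the marks, so it is only a description. Of the 3566 windows inside, 96.7% lay above 0 for H3K9me2, and in 124 domains every window did.

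H3K9me2 was also higher in the domains than 5 to 15 kb away from them. Flanks were the windows 5 to 15 kb away on either side that were more than 5 kb from any domain, and 210 domains had at least 5 such windows. H3K9me2 in the flanks had a median of 0.07 (quartiles -0.03 and 0.15). All 210 domains lay above their flanks, where 48.8% of 5 kb stretches elsewhere lay above theirs. The counting intervals of domain and flanks were apart in 206. The gain was 0.67 at the median (1.59-fold), with quartiles of 0.51 and 0.81 and a range of 0.0035 to 1.30. For 16571 stretches elsewhere the 5th and 95th percentiles of the same measure were -0.40 and 0.39. The input ratio was lower in domains than in flanks, with medians of -0.64 and 0.20. The input-matched gain was 0.43 (1.35-fold; quartiles 0.30 and 0.55) and positive in 207 of 210. With domains and flanks both recomputed over other inputs, H3K9me2 was above its flanks in 193 of 194 domains (inputs labelled set-25), 138 of 197 (pooled met-2 inputs) and 58 of 208 (met-2 inputs exchanged).

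Among domains, H3K9me2 was higher where H3K9me3 was higher. Split into 3 classes by H3K9me3, domains with the lowest H3K9me3 (1.30 to 2.04) had a median H3K9me2 of 0.54, those between 0.72 and those with the highest H3K9me3 (2.56 to 3.83) 0.85. The number above 1 was 0 of 71, 3 of 72 and 21 of 71. Over the 214 domains Spearman's rho was 0.71 (Pearson's r 0.72), and 0.66 with input-matched H3K9me2. Domains of 1 pair of libraries share depth and input, so these coefficients are descriptions. With length rho was 0.30, and 0.36 for input-matched H3K9me2, with H3K9me2 medians of 0.68 at 5 to 7.5 kb, 0.73 at 8 to 10 kb and 0.81 above 10 kb.

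The input ratio ordered H3K9me2 among domains too, but not its input-matched value. In 61 domains with an input ratio below -1 the median H3K9me2 was 0.83, and in 33 domains above 0 it was 0.54. The input-matched medians of the 4 classes of input ratio lay between 0.46 and 0.49.

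**Figure D3:**
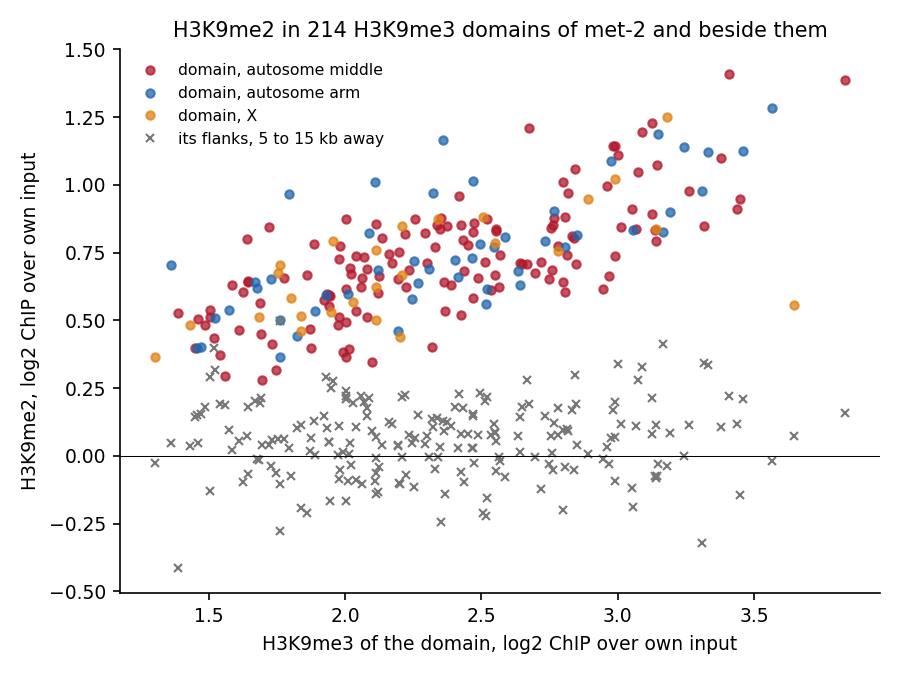
H3K9me2 (y axis) against H3K9me3 (x axis) in the 214 H3K9me3 domains of met-2, both as log2 ChIP over own input from summed counts; each circle is a domain, coloured by place, and each cross the H3K9me2 of its flanks. Domains lie between 0.28 and 1.41, rising to the right, while the flanks stay around 0.07.

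Within domains the marks also varied together. The rank correlation of H3K9me2 and H3K9me3 over the windows of a domain was positive in 195 of 214, with a median of 0.48 (quartiles 0.24 and 0.62). With input-matched H3K9me2 it was positive in 185, with a median of 0.41. The highest H3K9me2 window coincided with the highest H3K9me3 window in 46 domains and lay within 1 kb of it in 108. The median domain was only 7 kb long, so some peaks would lie close together in any case. Neither these counts nor the correlations were measured in stretches outside domains.

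The 5 longest domains all lay in autosome middles. In the longest, 29 kb on II from 7725001 to 7754000, H3K9me2 was 0.71 (0.68 to 0.75) and H3K9me3 2.64, with equal inputs (ratio -0.02). The domain of 26.5 kb on III from 6746501 to 6773000 had H3K9me2 at 1.19 and H3K9me3 at 3.09. On V from 6138501 to 6162500 the values were 0.88 and 2.81, on I from 4058001 to 4077500 1.10 and 3.38, and on III from 5111501 to 5131000 0.82 and 2.29. In all 5, H3K9me2 was lower than H3K9me3 by at least 1.

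The 5 domains with the highest H3K9me2 had H3K9me3 of 3.13 to 3.83. The top one was on I from 4334001 to 4341000, where H3K9me2 was 1.41 (1.34 to 1.48), H3K9me3 3.41 and all 14 windows exceeded 1 for H3K9me2. It was followed by V from 8477001 to 8486500 (1.39), V from 17133501 to 17145000 (1.28), X from 9192001 to 9202000 (1.25) and III from 6785501 to 6794500 (1.23). The flanks of these 5 stood at -0.04 to 0.22. The 5 with the lowest H3K9me2 had H3K9me3 of 1.30 to 2.10. They lay on I from 7823501 to 7830500, at 0.28 (0.21 to 0.36), on V from 11332501 to 11338000 (0.30), on IV from 9099501 to 9104500 (0.32), on III from 6482001 to 6489000 (0.35) and on X from 9421501 to 9426500 (0.36).

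Seen from the other mark, every H3K9me2 domain lay inside an H3K9me3 domain. The same definition gave 10 H3K9me2 domains of 5 to 13 kb, with 146 windows, and all 146 belonged to H3K9me3 domains. H3K9me2 ranged from 1.24 to 1.57 (2.36- to 2.97-fold) and H3K9me3 from 2.91 to 3.82 (up to 14.1-fold). Their input-matched H3K9me2 ran from 0.74 to 1.33. Over the set-25 input their H3K9me2 was 0.70 to 1.33, and over the H3K9me3 input of met-2 it was -1.12 to 0.85.

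The highest was on II from 8286001 to 8293000, with 4262 ChIP and 1837 input counts for H3K9me2, at 1.57 (1.49 to 1.65), and H3K9me3 at 2.91. The longest was on I from 4058501 to 4071500, at 1.30 and 3.57. The others were on I from 4334001 to 4341000 (1.41 and 3.41), on III from 6764001 to 6769000 (1.36 and 3.24) and from 6785501 to 6792000 (1.34 and 3.23), and on IV from 5988501 to 5994000 (1.24 and 3.04), from 5994501 to 5999500 (1.25 and 3.24) and from 11979001 to 11986000 (1.39 and 3.20). On V they were found from 8477001 to 8485000 (1.42 and 3.82) and from 2784001 to 2793000 (1.32 and 3.25). The last lay on an arm and the other 9 in middles.

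H3K9me2 of set-25 embryos, measured over its own input, was far higher in the domains on arms than in those in middles, and H3K9me2 of met-2 was not. On arms the median of 50 domains was 1.08 in set-25 and in 138 middle domains -1.38. Over all kept windows the set-25 median was -1.33. It was not computed for all arm and all middle windows, so the contrast is not read as particular to the domains. In met-2 the same domains had H3K9me2 medians of 0.72 and 0.71. Over the 214 domains the rank correlation of set-25 H3K9me2 with met-2 H3K9me2 was 0.29, and -0.02 when the latter was input-matched. For the 210 domains with flanks, set-25 H3K9me2 exceeded that of the flanks by 0.43 at the median. Stretches elsewhere were not measured in set-25. The H3K9me3 library labelled set-25 had a median of 0.05 in the domains and -0.29 over all kept windows. This library and its input were depleted over the stretch on III that the met-2 columns lacked. Its strain is thus uncertain, and the value is not read as H3K9me3 of set-25 embryos.

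With distance from a domain both marks fell. At the outermost 500 bp inside the domains the median H3K9me3 was 1.38 and H3K9me2 0.46, and at 4.5 kb or more inside they were 2.78 and 0.92. In the 383 windows directly outside, H3K9me2 was 0.22 and H3K9me3 0.68, which cannot exceed 1 there by the definition. H3K9me2 was 0.14 to 0.18 from 0.5 to 2 kb, 0.12 from 2 to 3 kb and 0.10 from 3 to 5 kb. It was 0.04 from 5 to 20 kb, 0.01 from 20 to 50 kb and -0.04 beyond 200 kb, where H3K9me3 was -0.41. Within 5 kb of a domain H3K9me2 exceeded its median beyond 50 kb by 0.16.

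The input-matched value took the same course. It was 0.65 at 4.5 kb or more inside, 0.35 at the edge, 0.21 directly outside, 0.08 from 3 to 5 kb and -0.05 beyond 200 kb. The input ratio, by contrast, changed as a step. It was between -0.56 and -0.44 from 0.5 kb inside to the interior, -0.01 in the outermost window and 0.31 to 0.44 in every class outside.

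H3K9me2 near domains was also compared among windows with H3K9me3 between -0.5 and 0.5. Their input-matched H3K9me2 was 0.09 in 2003 windows within 5 kb of a domain, 0.06 from 5 to 20 kb and 0.04 from 20 to 50 kb. It was 0.02 from 50 to 200 kb and -0.03 beyond. Their median H3K9me3 also fell over these classes (-0.02, -0.13, -0.15, -0.17 and -0.18), so the level of H3K9me3 was not held equal. In autosome middles the values over all windows were 0.14 within 5 kb and 0.01 beyond 200 kb, and on arms 0.07 and -0.09. These H3K9me2 values are below the counting error of a single window (SE 0.16), so they describe medians over many windows and no window alone.

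**Figure D4:**
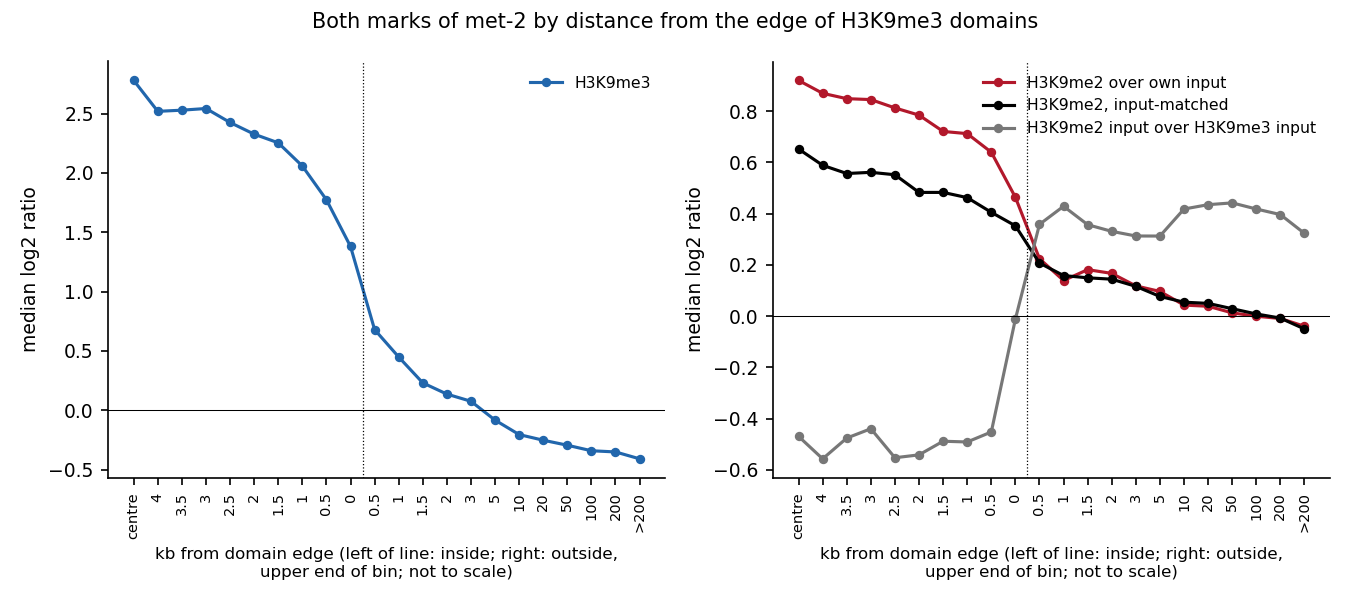
Median log2 enrichment of H3K9me3 (left) and of H3K9me2 over its own input and input-matched, with the log2 input ratio (right), by distance in kb from the edge of the H3K9me3 domains of met-2. Left of the dotted line are windows inside (centre: 4.5 kb or more from the edge) and right of it those outside; H3K9me2 falls from 0.92 to -0.04, and the input ratio steps from -0.47 to 0.36.

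At 5 kb the marks were compared from summed counts, in 19435 windows with at least 5 of 10 windows kept. The median counting error of the difference between marks was 0.21 in windows of 500 bp and 0.06 in those of 5 kb. H3K9me2 was at least 2-fold above H3K9me3 in 26116 windows of 500 bp (13.7%) and in 614 of 5 kb (3.16%). It was at least 2-fold below in 8561 (4.48%) and 590 (3.04%). The excess of the first direction at 500 bp was therefore not found at 5 kb, and at 50 kb the shares were 0.20% and 3.65%. Centring each mark on its median (H3K9me2 -0.01, H3K9me3 -0.35) turned the split, to 10161 above and 17503 below at 500 bp and 83 above and 948 below at 5 kb. With no input the 5 kb counts were 50 and 1928, and with the met-2 inputs exchanged 7024 and 2301. Of the 26116 windows, 8013 had a counting interval wholly above 1, and of the 614, 288 did.

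The 2 directions differed in what the marks did. In the 590 windows of 5 kb with H3K9me2 below H3K9me3, the medians were 2.01 for H3K9me3 and 0.55 for H3K9me2, and 26.7% of the autosomal ones lay on arms. In the 614 with H3K9me2 above, H3K9me2 was 0.30 and H3K9me3 -0.86, both on the side of a low input ratio (median -1.07), and 81.2% lay on arms. Of all autosomal windows of 5 kb, 49.8% lay on arms. At 500 bp, 47.4% of windows with an input ratio below -1 had H3K9me2 at least 2-fold above H3K9me3, against 10.6% where the inputs differed by at most 0.2 and 2.21% where the ratio exceeded 1. The shares with H3K9me2 at least 2-fold below were 5.36%, 3.29% and 8.07% in the same 3 strata. Composition of the inputs and the marks cannot be told apart in either direction.

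The relation between the marks was tighter at larger scales. Spearman's rho was 0.10 over windows of 500 bp, 0.28 at 5 kb (n = 19435) and 0.53 at 50 kb (n = 1971). With input-matched H3K9me2 it was 0.25, 0.49 and 0.66. In the 850 windows of 5 kb above 1 for H3K9me3 (4.37%), 829 (97.5%) lay above 0 for H3K9me2, and their median exceeded that of windows near 0 by 0.52, or by 0.35 at equal input ratio. H3K9me2 exceeded 1 in 59 windows of 5 kb, 57 of which also exceeded 1 for H3K9me3. The windows above 1 for H3K9me2 alone were 1159 of 2563 at 500 bp, 217 of 833 at 1 kb and 23 of 264 at 2 kb. They were 2 of 59 at 5 kb and 0 of 17 at 10 kb. All windows above 1 for H3K9me2 also became rarer, from 1.34% at 500 bp to 0.17% at 10 kb, as the SD of H3K9me2 fell from 0.46 to 0.23.

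**Figure D5:**
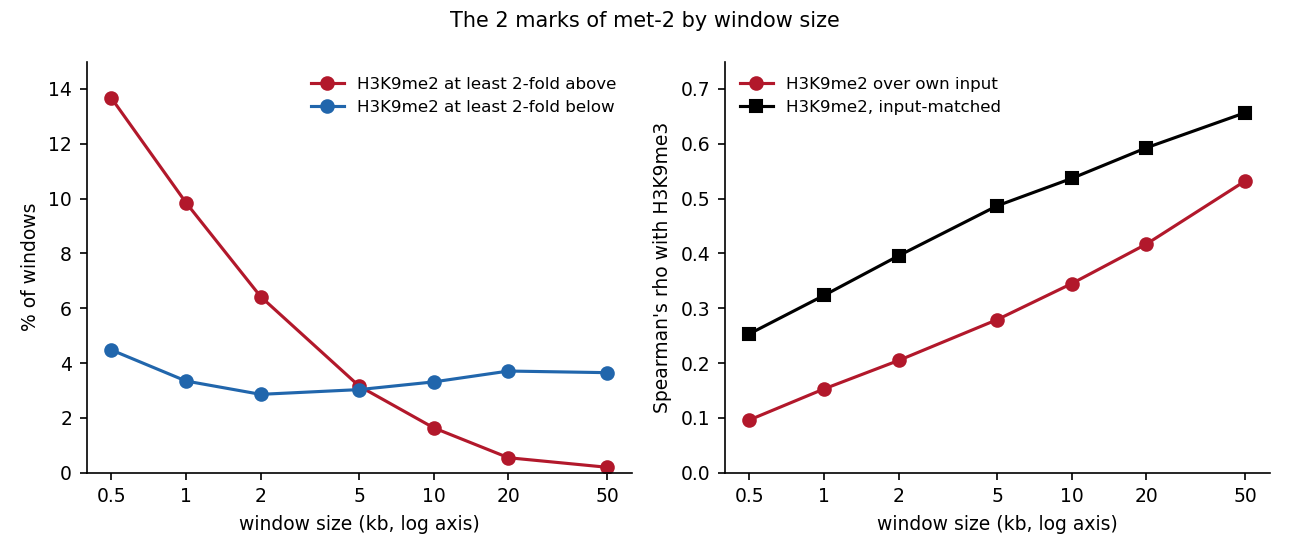
Share of windows with H3K9me2 at least 2-fold above or below H3K9me3 in met-2 (left, %) and Spearman's rho of the 2 marks (right) against window size (kb, log axis). The share above falls from 13.7% to 0.20% and the share below stays between 2.86% and 4.48%, while rho rises from 0.10 to 0.53, or from 0.25 to 0.66 when input-matched.

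The 5 kb windows with the largest differences lay far apart in level. H3K9me2 was furthest below H3K9me3 on V from 6181001 to 6185000, at 0.77 against 3.87, an 8.58-fold difference. It was followed by II from 7081001 to 7085000 (0.65 against 3.69), II from 10705501 to 10710000 (1.11 against 4.07), V from 6175001 to 6179000 (1.51 against 4.47) and X from 7725001 to 7730000 (0.42 against 3.37). In all 5, H3K9me2 was still above 0. H3K9me2 was furthest above on I from 10945001 to 10950000, at 0.69 against -1.47, a 4.48-fold difference. The next were X from 12275001 to 12280000 (0.44 against -1.56), I from 15065001 to 15069000 (0.55 against -1.43), IV from 11070001 to 11074000 (0.98 against -0.90) and I from 11745001 to 11750000 (0.57 against -1.29). Of these 5, the window on IV had equal inputs (ratio 0.01), and the other 4 had input ratios of -3.00 to -1.74. The window on I from 15065001 was heavily over-covered, with 1282633 counts in the H3K9me3 input and 47827 in the H3K9me2 input over its 8 windows of 500 bp, 336.1 and 32.7 times the median per window. H3K9me2 of set-25 was 2.03 to 5.24 in all 5.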

How the data were processed

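The authors deposited raw counts per 500 bp window, 1 column per group, a unit read from the whole numbers and unequal column totals. Not given in the sources used here are the aligner, the counter, the build and how repeats and duplicates were handled. Per the labels' protocols, embryos were fixed in 2% formalin for 30 min and chromatin was sonicated. Column names gave the groups. The last line was incomplete and was left out, and X is covered to 16493500. Positions are those of the table, counted from 1. Genes of the WBcel235 table lie beyond the last window on 4 of 5 autosomes, so no gene was placed and no sequence read.

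Columns were scaled to totals, 0.1 CPM was added, and 6947 windows under the floor of 20 input counts were left out (96.5% kept). Domain, flank and 5 kb values came from summed counts, with exact (Clopper-Pearson) 95% intervals of the ChIP share. Since PCR reads are not independent molecules, intervals cover counting error only. The 95% Poisson interval of a median window spanned 8.87% to 16.7% to either side in the met-2 columns. Regions named are all H3K9me2 domains, the 5 longest H3K9me3 domains, the 5 highest and 5 lowest for H3K9me2, the 5 longest runs of H3K9me2 without H3K9me3, and the 5 largest 5 kb differences per direction. Members, domains and measures were chosen with earlier results of these data known. The input-matched value was added after the data were seen. Scripts (Python 3.11.15, numpy 2.4.6, pandas 2.3.3, scipy 1.17.1) were tested on simulated data. Inputs, scaling, floor, pseudocount, thresholds and domain length were varied.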

Additional observations from a re-analysis of the deposited data

How the results depend on the processing

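No paired analysis was possible because the table has 1 column per group, and for the same reason no replicate could be left out. Results are taken in this order: the H3K9me2 difference by H3K9me3 level (0.66), windows enriched for both marks (1404), domains above their flanks (210), the excess of H3K9me2 within 5 kb of domains (0.16), 500 bp windows with H3K9me2 at least 2-fold above (26116) and below (8561), 5 kb windows above (614) and below (590), and the input-matched difference (0.40). With the met-2 inputs exchanged the difference reversed to -1.07, and the others were 452, 58, 0.13, 93635, 32613, 7024, 2301 and 0.10. With pooled met-2 inputs the difference was 0.19, windows of both marks 270, domains 138, and the 4 window counts 52287, 14189, 2369 and 937. With the inputs labelled set-25 the difference was 0.47, windows of both marks 415, 5 kb windows above 184 and the input-matched difference 0.35. With no input the difference was 0.22, the excess near domains 0.20, the window counts 14615, 27412, 50 and 1928 and the input-matched difference 0.53. In the windows whose inputs differed by less than 0.2, the difference was 0.41, windows of both marks 99, the window counts 2727, 849, 6 and 11, and the input-matched difference 0.41. Fewer windows were left there, and none formed a domain, so no domain value was obtained.

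Centring on medians gave a difference of 0.54, an excess of 0.13, window counts of 10161, 17503, 83 and 948 and an input-matched difference of 0.36. A pseudocount of 1 CPM gave 0.62, 645 windows of both marks, 15460 above at 500 bp and 0.37 input-matched. Without over-covered windows the difference was 0.62, domains 127 of 128 and 5 kb windows above 299. A floor of 50 gave a difference of 0.65, and no floor 0.64 with an excess of 0.13. A threshold of 0.5 gave 0.47, 6638, 346 of 349 domains, 0.11, 71189, 24185, 5826, 1215 and 0.28, and a threshold of 2 gave 0.93, 7, 83 of 83 domains, 0.31, 1016, 1053, 1, 98 and 0.59. Domains of at least 6 windows gave 420 of 423 above their flanks, and of at least 20 windows 50 of 51 with an excess of 0.18. With 5 strata the input-matched difference was 0.42. Apart from the reversal named, the difference by level, the excess near domains and the input-matched difference were positive under all alternatives run. Thresholds change the counts by construction, and for the other changes the cause was not tested. Depth limited single windows (SE 0.16 for H3K9me2) more than domains.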
